A study of Mus musculus with 10 samples.

Results

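Kinesins are motor proteins that bind microtubules and use ATP to walk along them or to take them apart at their ends. Some act only while a cell divides, when they push the spindle poles apart, line up chromosomes and cut the cell into daughters, and their genes are transcribed mainly late in the cell cycle. Others carry vesicles, organelles and proteins along microtubules at all times, in neurons over long distances and in many cells into the cilium. The genes described here are those named Kif with a number and at most 1 letter from a to c, with a mean of at least 10 normalized counts over all libraries. Of 37 symbols that match the name, 34 reached that mean, 11 of them mitotic kinesins and 23 other kinesins, out of 16517 genes tested and 23086 listed. The members just inside the limit were Kif27 (mean 18.1) and Kif1a (27.0), and those outside were Kif6 (6.37), Kif19b (1.97) and Kif17 (1.36).

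The RNA came from tumours of BBN963 cells, a mouse urothelial (bladder) carcinoma line, taken from tumour-bearing mice when they measured 500 mm3. Of 10 tumours, 5 were of genotype ATM-WT and 5 of genotype ATM-KO, where ATM is a kinase that signals DNA breaks. No agent is named for either group, and the labels give no mouse strain or age, no kind of ATM lesion, and no number of knockout clones. Separate animals are not stated either, so each p-value reflects the spread of these samples alone. Whole tumours hold host cells of the same species, and fewer cells of a type cannot be told apart from less RNA per cell.

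Libraries summed to 20.2 to 22.3 M (mega) normalized counts and stood for roughly 20.6 to 28.3 M reads each, with 8.79 M in ATM-WT library A2. ATM-WT libraries A2 and A4 also listed the most genes at 0, 4824 and 4266 against 2225 to 3602 in the others. Atm messenger RNA was 485 ± 183 against 455 ± 139 (ATM-WT first) and overlapped, which does not check the labels, since the kind of lesion is not stated. The epithelial markers that should define a urothelial tumour were far lower in ATM-KO: all 12 tested fell, Krt19 from 10238 to 10.2. Summed over the 13 listed, their level was 85140.7 to 236834 against 2214 to 3863, and 1 of the 13 was at 0 in all ATM-KO libraries. Of 7 fibroblast markers 6 fell (summed 77445 to 355792 against 25707 to 70960), and of 6 leukocyte markers tested 2 rose and 1 fell (summed over the 7 listed, 2778 to 6416 against 6302 to 8030). For comparison, 22.1% of all genes tested were higher in ATM-KO and 24.3% lower. The part of these markers in the kinesin differences was not tested. Levels below are normalized counts, as mean ± SD of 5 libraries, and log2 fold changes (log2 of value + 1, positive where ATM-KO is higher) carry ± SE, with p-values from limma adjusted over all 16517 genes. Levels of different genes are not compared, since the values are not per length.

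Of the 11 mitotic kinesins 10 rose in ATM-KO and none fell, with a median log2 fold change of 0.85. Over all genes tested, 46.4% were called, 22.1% higher and 24.3% lower, with a median of 0.00467. For 8 of the 11 every ATM-KO library lay above every ATM-WT library, as for 17.0% of all genes. Kif4 rose most and Kif15 did not pass the test. The 20 genes of a proliferation reference (replication, cyclin and mitosis genes and the regulators E2f1, Mybl2 and Foxm1, none of them kinesins) rose too, 20 of 20, with a median of 0.87, a median close to that of the mitotic kinesins.

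**Figure D1:**
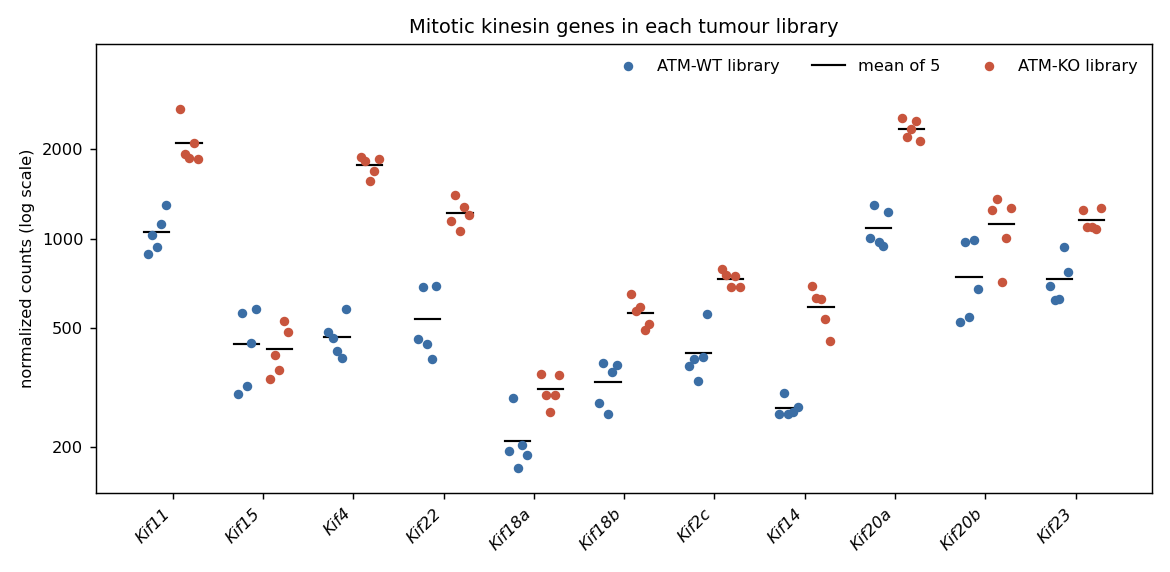
Normalized counts of the 11 mitotic kinesin genes in each of 10 tumour libraries, on a log axis, with ATM-WT in blue, ATM-KO in red and lines at the mean of 5. Kif4 shows the widest gap between genotypes, Kif15 shows none, and the groups also overlap for Kif18a and Kif20b.

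Pole separation is the work of Kif11, which slides antiparallel microtubules apart, and of Kif15, which helps keep the spindle bipolar. Kif11 held 886, 1031, 938, 1119.8 and 1301 normalized counts in ATM-WT libraries A1 to A5 and 2721, 1926, 1871, 2091 and 1845 in ATM-KO libraries A11 to A15. Every ATM-KO library was above every ATM-WT library, and A11 was the highest. The mean went from 1055 ± 164 to 2091 ± 365, a log2 fold change of 0.98 ± 0.14 (limma adjusted p = 8.13e-05). Kif15 held 301, 564, 321, 447 and 580.0 in ATM-WT and 339, 408, 363, 529.7 and 485 in ATM-KO. Those values overlap throughout, and the ATM-WT libraries are the more scattered. Means of 443 ± 131 and 425 ± 81.0 gave -0.03 ± 0.21, with a 95% interval from -0.49 to 0.43 (limma adjusted p = 0.931). The mean log2 ratio of Kif11 to Kif15, in which gene length cancels between groups, was higher in ATM-KO by 1.01. In 5 of 5 ATM-KO libraries the ratio exceeded that of every ATM-WT library. The exact two-sided permutation p was 0.00794, the smallest that 5 against 5 can give, and 0.0298 adjusted over 15 ratios of related kinesins.

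The start regions of the pair are shown because their messenger RNAs moved apart, while both hold, close to the start, a short element typical of late cell cycle genes. That element is the cell cycle genes homology region, TTTGAA or its complement TTCAAA, printed in capitals within the stretch from 120 bases before to 50 bases after the RefSeq start, on the gene's strand, in build GRCm38.p6. Kif11 lies at chr19:37376262-37376431 and Kif15 at chr9:122950961-122951130, both on the plus strand. Kif4 at chrX:100625945-100626114 (plus) and Kif22 at chr7:127042371-127042540 (minus) are the chromosome arm motors described next.
Kif11: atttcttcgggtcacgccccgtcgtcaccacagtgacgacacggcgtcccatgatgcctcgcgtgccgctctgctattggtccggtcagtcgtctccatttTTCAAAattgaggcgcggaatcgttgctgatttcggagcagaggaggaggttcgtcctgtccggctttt
Kif15: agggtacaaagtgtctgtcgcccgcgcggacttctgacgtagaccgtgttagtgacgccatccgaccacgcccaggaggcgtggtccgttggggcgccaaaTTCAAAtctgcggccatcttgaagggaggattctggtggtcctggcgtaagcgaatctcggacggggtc
Kif4: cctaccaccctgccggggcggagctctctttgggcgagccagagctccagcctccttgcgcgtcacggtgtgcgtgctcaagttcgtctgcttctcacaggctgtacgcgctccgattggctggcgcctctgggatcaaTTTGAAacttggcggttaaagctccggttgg
Kif22: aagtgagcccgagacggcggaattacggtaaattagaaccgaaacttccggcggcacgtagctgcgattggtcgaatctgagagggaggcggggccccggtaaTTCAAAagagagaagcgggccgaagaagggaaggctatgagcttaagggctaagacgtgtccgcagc
The element starts 19 bases before the start site in Kif11 and also in Kif15, 17 before it in Kif22 and 20 after it in Kif4. Searched on both strands over the RefSeq window from 250 bases before to 50 after the start, it was in 9 of the 10 mitotic kinesin windows (90%), against 3 of 22 for the other kinesins (13.6%), 11 of 15 for the partners of mitotic kinesins (73.3%), 6 of 18 for the proliferation reference (33.3%) and 17.9% of all 32851 windows. A window was at hand for 10 of the 11 mitotic kinesins and for 18 of the 23 others, and some genes have several. Kif18a was the mitotic window without it. Not every match lies close to the start: the only match in Kif14 begins 228 bases before it and that in Kif2c 103 before it. A CCAAT box, which many such promoters carry, was in 6 of the 10 (60%), in 73.3% of the partner windows, in 83.3% of the reference windows and in 37.4% of all windows, and of the pair above only Kif11 held one. A match of letters is a description and not a site.

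The 2 chromosome arm motors had the largest fold changes among the 11, with the difference tested only between the pair itself. Kif4, which binds chromosome arms and the midzone, held 486, 464, 419, 399 and 578 in ATM-WT and 1872, 1828, 1557, 1692 and 1854 in ATM-KO. The lowest ATM-KO library is more than 2 times the highest ATM-WT library. The log2 fold change was 1.91 ± 0.12, with a 95% interval from 1.66 to 2.17 (limma adjusted p = 2.1e-07). Kif22, which pushes chromosome arms toward the spindle equator, held 459.6, 686, 445, 395 and 693 in ATM-WT and 1144, 1404, 1060.4, 1281 and 1199 in ATM-KO. The groups are clearly apart although ATM-WT libraries A2 and A5 stand above the rest of that group. Its log2 fold change was 1.22 ± 0.17 (limma adjusted p = 8.45e-05). The mean log2 ratio of Kif4 to Kif22 was higher in ATM-KO by 0.70 (exact permutation p = 0.00794, adjusted 0.0298). Again 5 of 5 ATM-KO libraries exceeded every ATM-WT library in this ratio. Kif4 shares 832 bases of exon with Pdzd11 on the opposite strand, and strand use in the counting is not given in the sources used here. Copies named Kif4-ps and Kif22-ps are annotated, so reads of both genes may be split. Pdzd11 changed by 0.45 ± 0.10, from 714 ± 65.4 to 977 ± 58.9.

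All 3 motors that act at microtubule ends rose. Kif18a, which damps chromosome movements at the kinetochore, held 194, 291, 171, 203 and 187 in ATM-WT and 352, 298, 262, 298 and 348 in ATM-KO. ATM-WT library A2 reaches into the ATM-KO range, and the log2 fold change was 0.59 ± 0.18 (limma adjusted p = 0.0151). Kif18b, which shortens the outer spindle microtubules, held 282, 383, 259, 357 and 377 in ATM-WT and 653, 571, 590.0, 493 and 516 in ATM-KO. Its groups do not overlap (0.78 ± 0.15, limma adjusted p = 9.76e-04). Kif2c, which does not walk but removes tubulin from microtubule ends and so corrects wrong attachments, held 374, 395, 333, 400.5 and 557 in ATM-WT and 789.9, 757, 686, 747 and 687 in ATM-KO. Here too all ATM-KO libraries are higher, and they vary little (0.85 ± 0.14, limma adjusted p = 3.12e-04).

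The 4 motors of the midzone and of cytokinesis rose as well. Kif20a, which brings the chromosomal passenger complex to the midzone, held 1006, 1292, 976, 942 and 1231 in ATM-WT and 2546, 2185, 2334, 2490.1 and 2123 in ATM-KO. No library of one genotype comes near the other (1.11 ± 0.11, limma adjusted p = 7.05e-06). Kif20a shares 1271 bases of exon with Cdc23 on the other strand, which rose by 0.56 ± 0.14. Kif14, which works with citron kinase in cytokinesis, held 258, 303, 258, 261 and 271 in ATM-WT and 694, 633, 625, 537 and 452 in ATM-KO. Its ATM-WT libraries are the tightest of any mitotic kinesin, with a coefficient of variation of 7.10%, and all lie lower (1.10 ± 0.14, limma adjusted p = 4.49e-05). Kif23, the motor of the centralspindlin complex, held 692, 621, 629, 937 and 773 in ATM-WT and 1252, 1094, 1097, 1081 and 1263 in ATM-KO. ATM-WT library A4 is the nearest to the ATM-KO libraries, without overlap (0.68 ± 0.13, limma adjusted p = 7.63e-04). Kif20b, needed for the final separation of daughter cells, held 525, 976, 544, 989.8 and 680.1 in ATM-WT and 1243, 1355, 718, 1006 and 1267 in ATM-KO. ATM-KO library A13 falls among the ATM-WT libraries, and the call (0.61 ± 0.22, limma adjusted p = 0.0402) was lost under 8 of 21 alternative settings, among them without library A1, A3, A5, A11, A12, A14 or A15 (0.50 to 0.64, adjusted p = 0.0585 to 0.0976), and the value was 0.91 without A2 and A4 together.

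**Figure D2:**
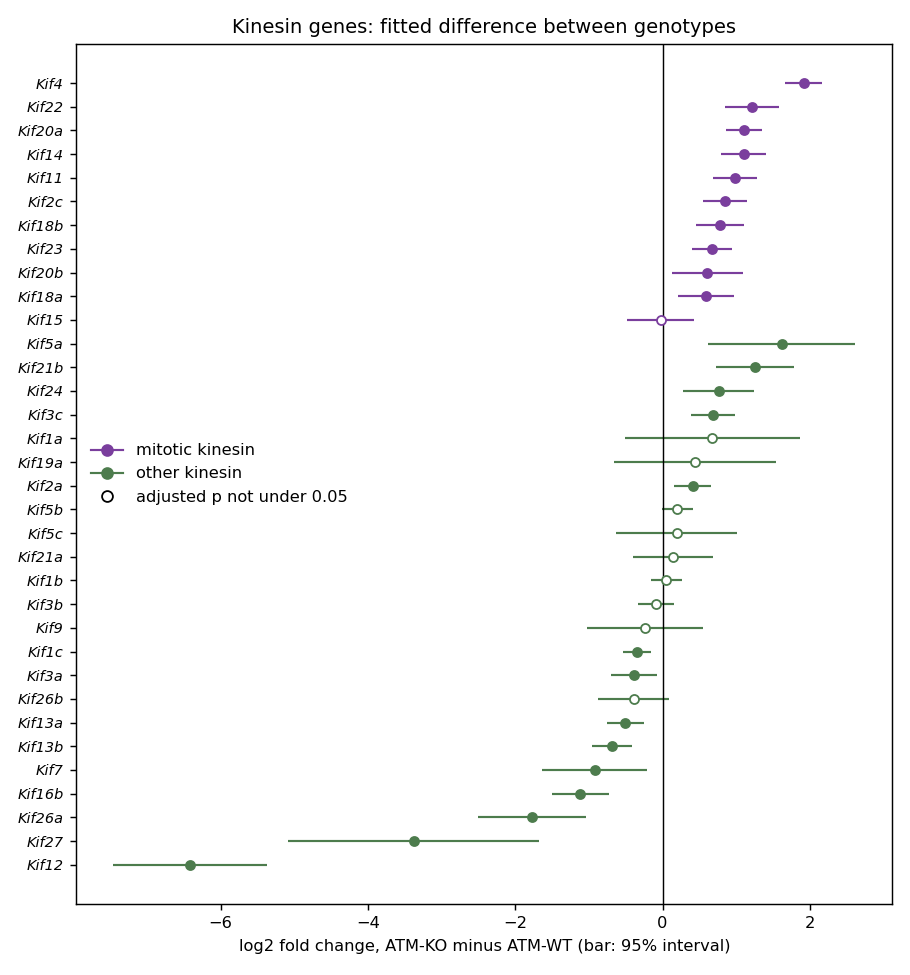
Log2 fold change of each of the 34 kinesin genes, ATM-KO minus ATM-WT, with 95% intervals from limma. Mitotic kinesins are purple, other kinesins green, and open circles mark adjusted p-values of 0.05 or more. Kif4 has the highest value and Kif12 the lowest.

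Subtracting in each library the median log2 level of the 20 reference genes, a step added after the data had been seen, left 2 mitotic kinesins apart. Kif4 stayed higher in ATM-KO by 1.03 ± 0.13 (limma adjusted p = 1.67e-05), and Kif15 became lower by -0.92 ± 0.18, with an interval from -1.31 to -0.52 (limma adjusted p = 6.12e-04). The other 9 ran from -0.30 for Kif18a to 0.33 for Kif22 and did not pass. On this scale 3.27% of all genes were above and 67.1% below, so over all genes being below is common and being above is rare. Among the reference genes themselves, Mybl2 (0.77), Ccna2 (0.57), Mcm4 (0.43) and Mcm5 (0.27) were also above, and the rest were not called. Being above is thus not particular to Kif4 among cell cycle genes. The Kif4 and Kif15 calls held under all 21 alternative settings. Library by library, the median of the mitotic kinesins followed that of the reference: in ATM-WT it was -0.12, 0.23, -0.23, -0.02 and 0.20 relative to the group mean, against -0.21, 0.27, -0.20, -0.04 and 0.13 for the reference. ATM-KO libraries A11 to A15 lay at 0.81 to 0.99 for the mitotic kinesins and 0.80 to 0.99 for the reference.

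**Figure D3:**
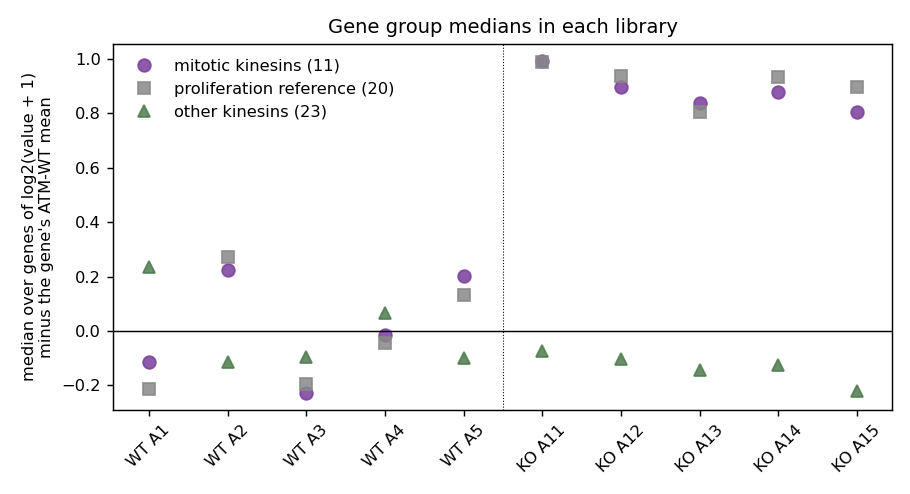
Median over genes of log2(value + 1) minus each gene's ATM-WT mean, for the 11 mitotic kinesins, 20 proliferation reference genes and 23 other kinesins in each library. Purple circles and grey squares sit close together in every library and shift up in ATM-KO, while the green triangles stay between -0.22 and 0.23.

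The 23 other kinesins did not move as a block. Of these, 5 rose, 9 fell and 9 did not pass, with a median of -0.09, beside 22.1% higher and 24.3% lower over all genes. Every ATM-KO library lay above every ATM-WT library for 5 (17.0% of all genes) and below for 7 (18.2%). Kif12 and Kif27 reached the mean of 10 only through ATM-WT. Without them 5 of 21 rose and 7 fell, all ATM-KO libraries were below for 5, and the median turned from -0.09 to 0.05.

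**Figure D4:**
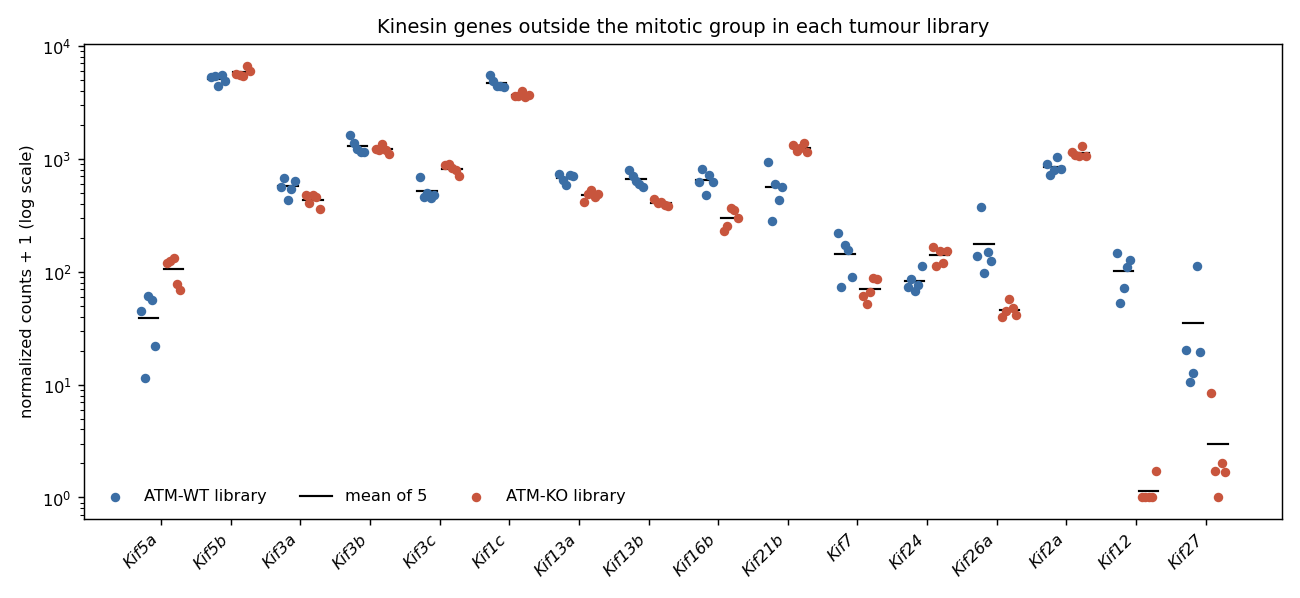
Normalized counts plus 1, on a log axis, of the 14 other kinesins that passed the test, with Kif5b and Kif3b, in each library, with ATM-WT in blue, ATM-KO in red and lines at the mean of 5. Kif12 lies at or near 0 counts in ATM-KO, and the Kif5a, Kif3c and Kif21b libraries of ATM-KO are higher than those of ATM-WT.

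Kinesin-1 is the main cargo motor. Kif5b, its heavy chain in most cells, held 5265, 5391, 4372, 5477 and 4879 in ATM-WT and 5652, 5465, 5418, 6672 and 5978 in ATM-KO. The groups overlap slightly, and the log2 fold change of 0.20 ± 0.09 did not pass (95% interval -0.00 to 0.41, limma adjusted p = 0.0994), though it did without libraries A2 and A4 together (0.27, adjusted p = 0.0428). Kif5a, its neuron-rich form, held 44.0, 10.4, 60.0, 55.2 and 21.2 in ATM-WT and 119, 123, 132, 77.1 and 67.7 in ATM-KO. Each ATM-KO library exceeds each ATM-WT library, at low levels (1.62 ± 0.46, limma adjusted p = 0.0119). Kif5c, the other neuronal form, averaged 237 ± 176 and 233 ± 66.0 and did not pass (0.19 ± 0.38). Of 5 neuron markers tested, 1 rose (Syt1, 10.7 to 69.6) and 2 fell (Snap25, 81.8 to 0.366, and Map2, 604 to 316), while the 10 listed summed to 529 to 991 in ATM-WT and 409 to 496 in ATM-KO, with 1 of those 10 at 0 in all ATM-KO libraries. These counts stand beside 22.1% higher and 24.3% lower over all genes. The part of the neuron markers in the Kif5a difference was not tested.

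In kinesin-2, which carries cargo into the cilium, the subunits went in different directions. Kif3a held 564, 672, 431, 541 and 629 in ATM-WT and 473, 402, 473, 454 and 357 in ATM-KO. ATM-WT library A3 lies within the ATM-KO values, and the fall (-0.39 ± 0.15, limma adjusted p = 0.0451) was lost under 14 of 21 alternatives, among them without any single library other than A3 (-0.42 to -0.32, adjusted p = 0.0531 to 0.114). Kif3b, its usual partner, held 1631, 1362, 1207, 1144 and 1152 in ATM-WT and 1223, 1199, 1340.2, 1196 and 1105 in ATM-KO, with overlap (-0.09 ± 0.11, interval -0.33 to 0.16). Kif3c, another motor subunit that is abundant in neurons, rose from 514 ± 102 to 817 ± 78.6 without overlap (0.68 ± 0.14, limma adjusted p = 0.00139). The mean log2 ratio of Kif3c to Kif3a was higher in ATM-KO by 1.07 (exact permutation p = 0.00794, adjusted 0.0298). In this ratio 5 of 5 ATM-KO libraries exceeded every ATM-WT library. Kif3c shares 2617 bases of exon with an antisense transcript, whose reads cannot be told apart without strand.

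Of the 6 kinesin-3 genes measured, which move vesicles and endosomes, 4 fell and none rose, with a median of -0.42, beside 24.3% lower over all genes. Kif16b, an early endosome motor, held 619, 807, 472, 710.2 and 619 in ATM-WT and 228, 252, 361, 347 and 300.4 in ATM-KO. All ATM-KO libraries are lower (-1.11 ± 0.18, limma adjusted p = 2.47e-04). Kif1c, which moves vesicles from the Golgi and integrin cargo, held 5485, 4916, 4382, 4360.4 and 4273 in ATM-WT and 3589, 3603, 3936, 3539 and 3691 in ATM-KO. That fall is small but without overlap (-0.35 ± 0.09, limma adjusted p = 0.00712). The endosome motors Kif13a (676 ± 59.2 to 477 ± 43.1, -0.50 ± 0.11) and Kif13b (658 ± 95.2 to 405 ± 21.7, -0.69 ± 0.12) fell without overlap, limma adjusted p = 0.00291 and 5.91e-04. Kif1b (0.05 ± 0.09), a motor of mitochondria and synaptic vesicle precursors, and Kif1a (0.68 ± 0.55), its neuronal relative at 22.7 ± 14.7 and 31.4 ± 13.3, did not pass.

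The kinesin-4 genes outside mitosis split. Kif21b, which limits microtubule growth, held 939, 282, 592, 433 and 556 in ATM-WT and 1325, 1166, 1235, 1367 and 1136 in ATM-KO. The ATM-WT libraries vary widely and A1 is the highest, yet all ATM-KO libraries are higher (1.26 ± 0.25, limma adjusted p = 0.00111). Kif21a, its relative, did not pass (0.14 ± 0.25). Kif7, a Hedgehog pathway motor at the cilium tip, fell from 141 ± 61.6 to 69.5 ± 15.8 with overlap (-0.92 ± 0.33, limma adjusted p = 0.0361), a call lost under 7 of 21 alternatives, among them without library A1, A3, A4, A11, A12 or A13 (-0.91 to -0.73, adjusted p = 0.0674 to 0.0864) and after quantile normalization (-0.42, adjusted p = 0.323). It shares 877 bases of exon with Ticrr on the other strand, which rose from 148 ± 53.1 to 400.2 ± 124. Kif27, its closest relative, held 19.3, 9.51, 11.6, 112 and 18.5 in ATM-WT and 7.34, 0.715, 0, 1.00 and 0.687 in ATM-KO. The ATM-WT mean rests largely on A4, and all ATM-KO libraries are lower (-3.38 ± 0.79, limma adjusted p = 0.00359). The size depends on the added 1 and was -2.08 with 5 added. Kif27 reached the mean of 10 only through ATM-WT, so its test is not separate from its selection.

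Of 4 cilium and flagellum motors listed, 3 reached the mean of 10 and were tested, and 1 of these rose, beside 22.1% higher over all genes. Kif6 missed that limit (6.37) and has no test. Its ATM-WT libraries held 1.56 to 26.9, its ATM-KO libraries only 0 to 2.50. The groups overlapped, but the ATM-KO mean was far lower, 0.824 against 11.9. Kif24, which restrains cilium assembly, rose from 82.2 ± 17.6 to 139 ± 22.8 without overlap (0.76 ± 0.22, limma adjusted p = 0.0142), by 1.26 after quantile normalization. Kif9 (-0.24 ± 0.36) and Kif19a (0.44 ± 0.51) of motile cilia did not pass. Of 4 multiciliated cell markers tested 1 was lower, Foxj1 from 214 to 15.7, and the 7 listed summed to 159 to 401 in ATM-WT and 33.8 to 101 in ATM-KO. The share lower over all genes was 24.3%, close to that of these markers. The part of the markers in the cilium motor values was not tested.

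Among the remaining members, Kif26a, an atypical kinesin without motor activity, held 136, 373, 96.4, 147 and 124 in ATM-WT and 38.9, 43.4, 56.5, 46.5 and 39.9 in ATM-KO. Library A2 sets the top of ATM-WT, and every ATM-KO library is below it and the rest (-1.77 ± 0.34, limma adjusted p = 9.51e-04). Kif26b, its relative, was not called (-0.39 ± 0.22, limma adjusted p = 0.165) but was lower without library A2 (-0.55, adjusted 0.0384) and without A2 and A4 together (-0.72, adjusted 0.00624). Kif2a, which removes tubulin from microtubule ends in dividing and resting cells, held 904, 715, 788, 1025 and 807 in ATM-WT and 1143, 1082, 1046, 1284 and 1053 in ATM-KO. Its small rise was without overlap (0.41 ± 0.12, limma adjusted p = 0.0108), and Dimt1, which shares 1229 bases of exon with it on the other strand, rose by 0.92 ± 0.16. Kif12, found in epithelia of kidney and liver, held 145, 51.9, 70.0, 109 and 126 in ATM-WT, while 4 ATM-KO libraries listed it at 0 and A15 at 0.703. The difference of -6.41 ± 0.48 (limma adjusted p = 8.09e-07) depends on the added 1 and was -4.27 with 5 added. The epithelial markers given above fell alongside it, and their part in the Kif12 difference was not tested.

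Ratios of related kinesins passed for 5 of 15 pairs. Besides Kif3c to Kif3a, Kif11 to Kif15 and Kif4 to Kif22, Kif1b to Kif1c was higher in ATM-KO by 0.40 (exact permutation p = 0.00794, adjusted 0.0298, but 0.0595 without library A11 or A12) and Kif26a to Kif26b was lower by -1.38 (exact p = 0.0159, adjusted 0.0476, but 0.0794 to 0.132 without any single ATM-KO library). With 5 added before the log, Kif26a to Kif26b differed by -1.30 and did not pass (adjusted exact p = 0.068). Kif5b to Kif5a differed by -1.42 (adjusted exact p = 0.068, and -1.69 with 0.0198 without library A3) and Kif20a to Kif20b by 0.50 (adjusted 0.162).

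**Figure D5:**
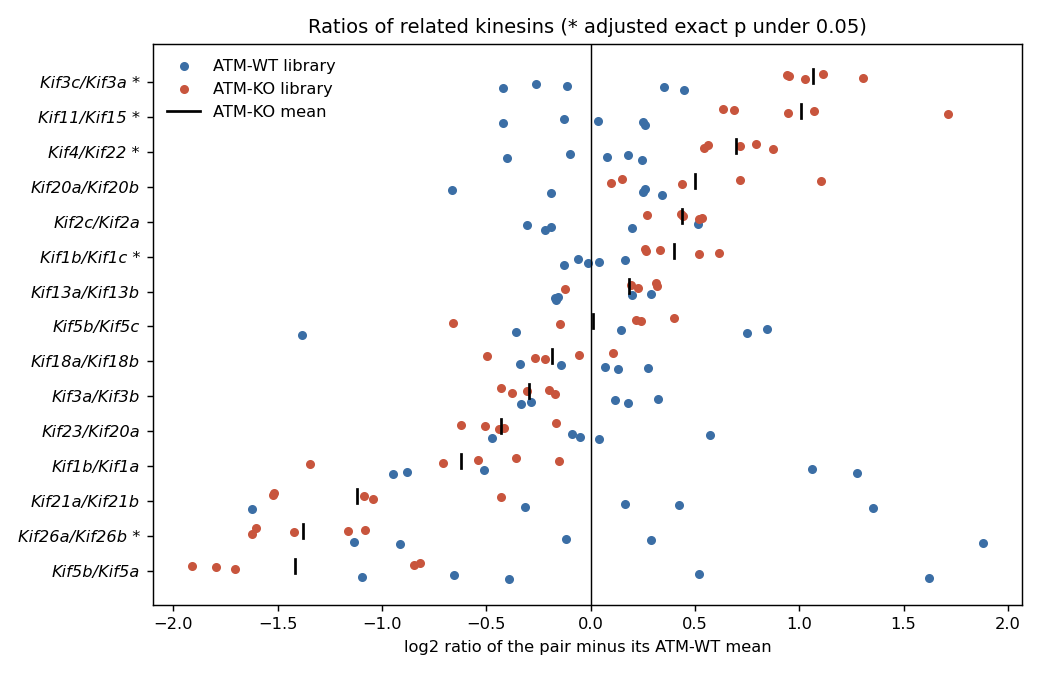
Log2 ratio of 15 pairs of related kinesins minus its ATM-WT mean in each library, with ATM-WT in blue, ATM-KO in red and bars at the ATM-KO mean. Stars mark an adjusted exact p under 0.05: Kif3c/Kif3a, Kif11/Kif15, Kif4/Kif22 and Kif1b/Kif1c are higher in ATM-KO, and Kif26a/Kif26b is lower.

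The counts of related genes that follow stand beside 22.1% higher and 24.3% lower over all genes. Of 6 kinesins with other names, 3 rose and 2 fell. Cenpe, the kinetochore motor (934 ± 223 to 2044 ± 495, 1.14 ± 0.20), Kifc1, which clusters centrosomes (542 ± 38.3 to 1145 ± 98.6, 1.08 ± 0.10), and its near copy Kifc5b (0.86, reads may be split between the copies) rose. Kifc3, a minus-end motor of epithelial junctions (1426 ± 497 to 455 ± 66.9, -1.59 ± 0.21), and Kifc2 (-0.64) fell. Of 16 partners of mitotic kinesins 14 rose, with a median of 0.97 and none lower: Racgap1, which pairs with Kif23, went from 1362 ± 198 to 3958 ± 123 (1.55 ± 0.10), Cdca8 rose by 1.23 and Bub1b by 1.16, while Cit (-0.52) and Kifbp (-0.07) did not pass. Among 19 light chains and cargo adaptors 2 rose and 6 fell, with a median of -0.09, beside 22.1% higher and 24.3% lower over all genes. Map7, which recruits kinesin-1, fell from 602 ± 353 to 3.23 ± 2.26 and reached the mean of 10 only through ATM-WT. The light chain Klc3 changed by -2.25 and the mitochondrial adaptor Trak1 fell from 1416 to 709.5. Among 21 intraflagellar transport genes 10 fell and 1 rose, with a median of -0.53, Ift172 from 1014 ± 204 to 202 ± 76.1 (-2.40).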

How the data were processed

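RNA of 10 tumours (5 ATM-WT, 5 ATM-KO) was sequenced. The values, deposited by the authors as a single table, are a signal in normalized counts. STAR, Salmon and DESeq2 are named in the submitters' processing notes; for versions, build and strand use the entry is "not given in the sources used here". Column names show genotype and a library number absent from the labels, so they map to groups only. Whole reads could not be recovered (52.0% to 67.8% of low values lay within 0.05 of a whole multiple), so no count model was run. Genes with a mean of at least 10 were compared by limma 3.58.1 (R 4.3.3, trend) after log2(value + 1), with Benjamini-Hochberg adjustment over all genes at 0.05. The procedure had first been run on simulated data with 200 of 16517 genes changed. It recovered 57% of 2-fold and 81% of 4-fold changes and called 10 of 16317 unchanged genes. A member that did not pass is therefore not shown to be unchanged. Exact permutation tests are two-sided. Promoters came from RefSeq windows (GRCm38.p6) and exon overlaps from GENCODE M21. Python 3.11.15, numpy 2.4.6, pandas 2.3.3 and matplotlib 3.10.9 were used. Values per library are given for every mitotic kinesin, for other called kinesins with an absolute log2 fold change of at least 1, and for Kif5b, Kif3a, Kif3b, Kif2a and Kif1c; related lists name up to 3 members with the smallest p, and further names were chosen after their values were seen. Members and lists were chosen with earlier results of these data known. Alternatives covered the pseudocount, the mean minimum, upper-quartile and quantile scaling, limma settings, sample weights and leaving out libraries.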

Additional observations from a re-analysis of the deposited data

Results flagged for a closer look

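In 9 of 68 groups of 5 values 1 library stood far from the others, each time on the high side. A rate of 1 in 20 would give about 3.4. That rate assumes normally distributed values, which counts near 0 are not, so no excess is read from it. Kif27 was 112 in ATM-WT library A4 against 9.51 to 19.3 in the others, and 7.34 in ATM-KO library A11 against 0 to 1.00. Kif12 was 0.703 in ATM-KO library A15 and 0 elsewhere in that group. Kif19a was 66.3 in A15 against 18.3 to 31.8. ATM-WT library A2 held the highest Kif26a, 373 against 96.4 to 147, and the highest Kif18a, 291 against 171 to 203. ATM-WT library A1 held the highest Kif5c, 541 against 106 to 219.8, and the highest Kif3c, 693 against 451 to 497. Kif11 was 2721 in ATM-KO library A11 against 1845 to 2091.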

How the results depend on the processing

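No paired analysis was possible because the columns carry library numbers that the sample labels do not. Of 34 kinesins, 24 kept direction and call under every alternative run, 21 each, or 20 for Kif27, Kif1a and Kif19a, which a mean of at least 50 leaves out. Leaving out 1 library at a time left 9 to 10 mitotic kinesins higher, 5 other kinesins higher and 7 to 9 lower. Quantile normalization, which moved the median of all genes to 0.15, gave 4514 genes higher and 3319 lower. Of the mitotic kinesins, 1 was above the proliferation reference, 3 after quantile normalization, 2 with sample weights and 1 to 2 with 1 library left out. Values without a call that changed sign were Kif9 (0.41), Kif15 (0.13) and Kif1b (-0.0021) under quantile normalization, and Kif15 (0.13) and Kif5c (-0.039) without A2 and A4. With 1 library left out Kif15 ran from -0.15 to 0.084, Kif21a from -0.055 to 0.27, Kif5c from -0.034 to 0.55 and the log2 ratio Kif5b/Kif5c differed by -0.33 to 0.22. The log2 ratios of Kif21a to Kif21b without A1 (-1.53), of Kif23 to Kif20a without A2 (-0.55) and of Kif2c to Kif2a without A5 (0.57) passed, with adjusted exact p = 0.0397, 0.0397 and 0.0238. The cause was not tested. Depth is known only roughly, so the exact counting error in the low members (Kif27, Kif12, Kif1a) is not known. By that rough depth 1 read was worth 0.762 to 1.02 normalized counts, and 2.47 in ATM-WT library A2. Values near 1 in the ATM-KO libraries therefore rest on very few reads.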

Other observations

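Tubulins form the track on which kinesins move. Of 16 tubulin genes tested, 7 rose, 2 fell and 7 did not pass in ATM-KO, with a median of 0.39, beside 22.1% higher and 24.3% lower over all genes: the alpha tubulins Tuba1c (5898 to 16569, 1.49) and Tuba1b (15847 to 39940.4, 1.35) and the beta tubulin Tubb3, known from neurons (1193 to 5098, 2.18), rose. Of 26 genes of dynein, the motor that runs the other way, and dynactin, its activator, 6 rose and 6 fell, shares near those over all genes, with a median of -0.08. Hook1, a dynein adaptor, went from 1118 to 23.4 (-5.78), while Dync1li1 (0.71) and Dctn3 (0.67) rose. Of 17 regulators of late and early cell cycle promoters 7 rose and 1 fell, among them E2f7 (191 to 564), E2f1 (648 to 1472) and Mybl2 (509 to 1521); the proliferation reference also holds E2f1, Mybl2 and Foxm1.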
